A study of Homo sapiens with 4 samples.

Results

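The genes examined here are 51 regulators of heterochromatin and Polycomb silencing, listed by name: enzymes of H3K9 methylation, HP1 proteins, the HUSH complex, histone deacetylases, the DNA methylation machinery, and the Polycomb complexes PRC1 and PRC2 with the enzymes that act against them. All 51 were found among the 60725 genes of the count table by their Ensembl identifiers, and all 51 had at least 10 counts in at least 2 libraries, as did 15356 genes in all. The lowest count of any of them in any library was 82. Their RNA was measured by RNA-seq in RPE1 SunTag cells, an hTERT-immortalized human retinal pigment epithelial line that expresses the SunTag imaging system. The control group (2 libraries) received a non-targeting siRNA (Silencer Select Negative Control No. 2), whereas a Dharmacon siRNA pool against TOP2B was used in the TOP2B knockdown group (2 libraries). Either siRNA was given at 10 nM, given again 48 h later, and the cells were harvested 72 h after the second transfection, at day 5. The control siRNA and the condition divide the libraries in the same way, so that an effect of either siRNA and an effect of TOP2B loss cannot be told apart. All libraries came from the same cell line, and in bulk RNA a larger share of cells with a transcript and more transcript per cell cannot be told apart.

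The libraries held between 20310259 and 23887013 counts, so that 1 CPM (counts scaled to library size, here with TMM factors) rests on 20.3 to 23.9 reads. TOP2B itself was at 155 and 144 CPM in the control libraries and at 15.3 and 13.3 CPM in the knockdown libraries, 9.58% of the control level. Simple epithelial keratins were abundant (KRT8 at 854 to 1347 CPM in every library), and MITF and OTX2, factors of the pigment epithelium, were present at 38.2 to 44.8 and 11.2 to 13.4 CPM. Of the other 7 pigment epithelium markers, RPE65, TYR and TTR had 0 counts in every library, where 0 counts allow a level of up to 0.149 CPM at a floor of 3 counts, and RLBP1 had at most 1 count. BEST1, PMEL and SERPINF1 were detected at low levels (14 to 20, 7 to 31 and 21 to 47 counts). The 5 pigment epithelium markers that were tested lay higher and the keratins KRT8 and KRT18 lower in both knockdown libraries than in both controls. Of these 7 genes 0 were called (edgeR, adjusted p from 0.137 to 0.54), and their part in the results below was not tested. Such separation of the groups, in either direction, was seen for 54.3% of all genes.

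Heterochromatin is built from several layers of marks. SUV39H1, SUV39H2, SETDB1, EHMT1 and EHMT2 methylate histone H3 at lysine 9, HP1 proteins bind the methylated tail, TRIM28 brings SETDB1 to sequences bound by zinc finger proteins, and the HUSH complex spreads the mark over transposons and some genes. DNMT1, guided by UHRF1, copies DNA methylation onto newly replicated DNA, whereas DNMT3A and DNMT3B set it anew. PRC2 methylates H3 at lysine 27 through EZH1 or EZH2, and PRC1 ubiquitinates histone H2A through RING1 or RNF2. Domains at the nuclear lamina carry H3K9 and H3K27 methylation, which is why the levels of these regulators bear on a study of genome contacts with the lamina.

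After TOP2B depletion, 10 of the 51 regulators rose, 0 fell and 41 did not pass the test (edgeR's quasi-likelihood test, adjusted p below 0.05 over all genes tested). Over all 15356 genes, 6.66% were called higher and 4.18% lower, together 10.8%. The 10 were CBX2, DNMT1, HDAC1, UHRF1, HELLS, KDM4B, EZH2, SUV39H2, EHMT2 and PHF19. Without adjustment 19 regulators had an unadjusted p below 0.05, 17 of them with a higher mean in knockdown cells and 2 (KDM4A and KDM4C) with a lower one, where 26.3% of all genes had such a p. Beside the called genes the higher ones were SUV39H1, TRIM28, HDAC3, SUZ12, EED, PCGF5 and KDM6A, and so no HP1 or HUSH gene was among them. With the Wald test of DESeq2 the numbers were 10 higher and 0 lower. The median log2 fold change of the 51 was 0.16, against -0.0029 over all genes tested, and 32 of the 51 (62.7%) had a positive value, as did 49.8% of all genes. Both knockdown libraries lay above both control libraries for 25 of the 51 and below them for 11, where 27.7% and 26.6% of all genes were separated in these directions, together 54.3%.

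**Figure D1:**
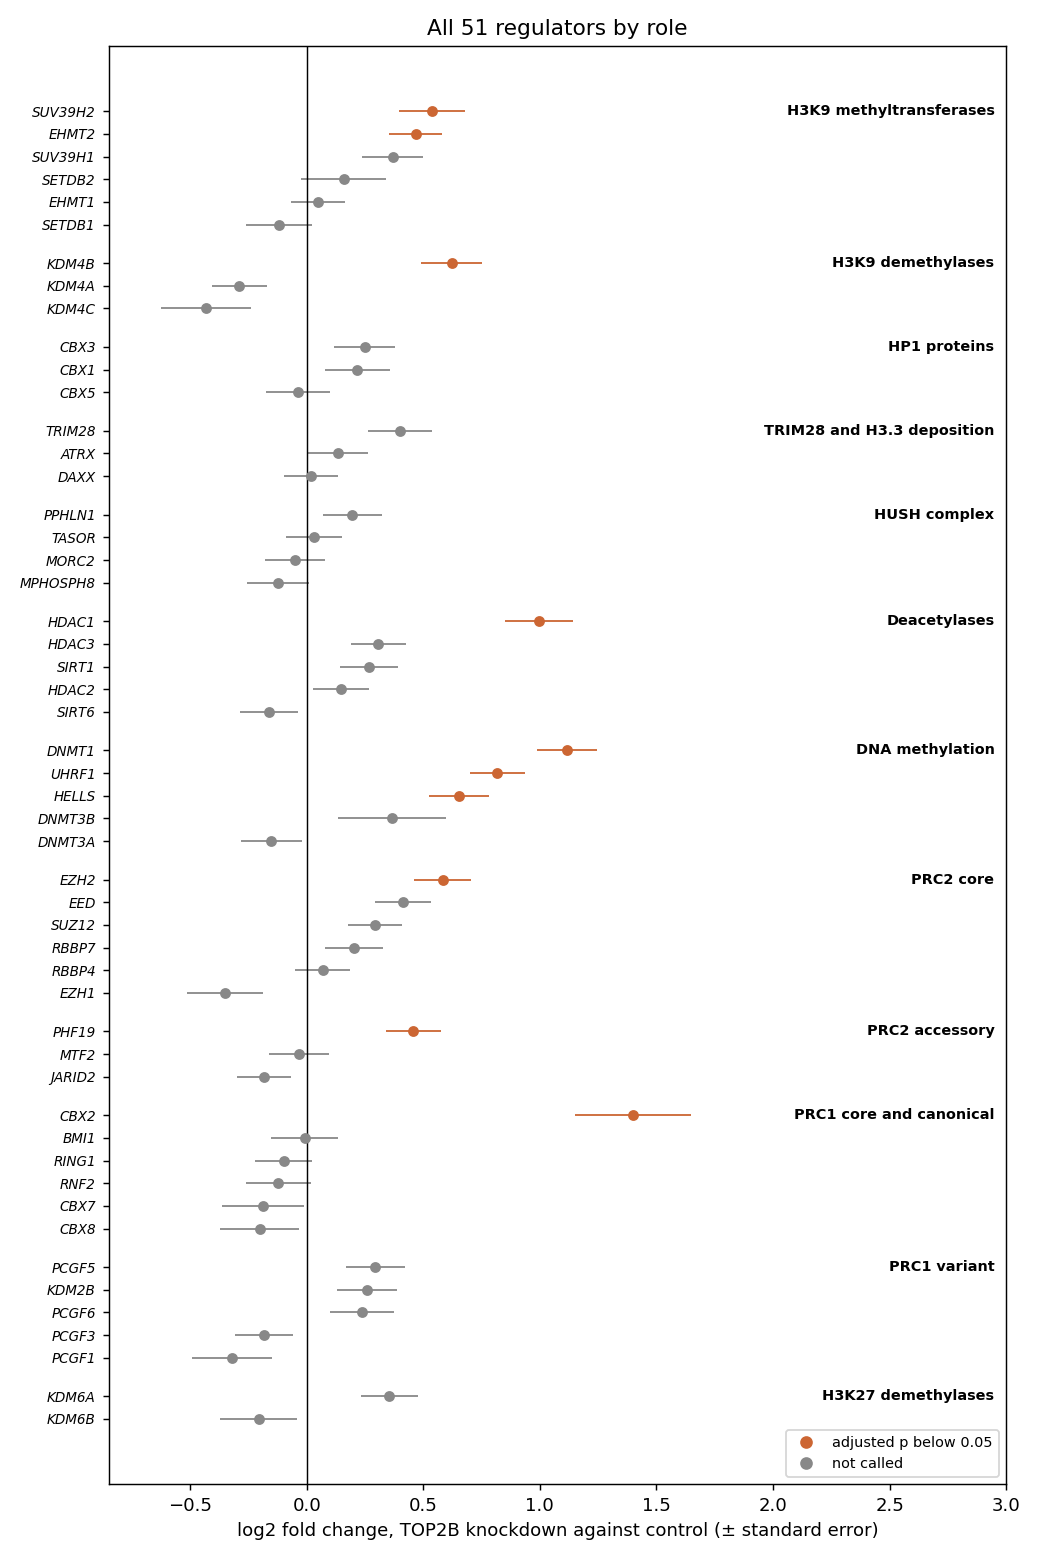
The log2 fold change of knockdown over control cells (horizontal axis) is plotted for each of the 51 regulators, grouped by role, with its standard error from the edgeR fit (bars). The 10 called genes (orange) lie between 0.46 and 1.40, and the 41 others (grey) within 0.43 of 0 in either direction.

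Genes of cell proliferation, counted after the data were seen, also lay higher in knockdown cells. Of 30 proliferation genes, 16 rose and 0 fell, and 30 had a positive fold change. Over all genes tested 6.66% were called higher, 49.8% had a positive value, and the median log2 fold change was -0.0029. The 15 genes of G1/S and of replication had a median log2 fold change of 0.71 with 14 called higher, and the 15 genes of G2 and mitosis a median of 0.32 with 2 called higher. The largest rises were those of CCNE2, a cyclin of S phase entry (log2 fold change 1.11), CDC45, MCM6, MCM10 and MCM4, parts of the replication machinery (1.11, 0.98, 0.79 and 0.77), and KIF11, a mitotic kinesin (0.77). PCNA and MCM2, also of the replication machinery, rose by 0.68 and 0.71 on the log2 scale (adjusted p of 0.0104 and 0.00609), while MKI67 and TOP2A, the paralogue of TOP2B in dividing cells, had values of 0.58 and 0.25 that did not pass the test (adjusted p of 0.13 and 0.322). MKI67 depended on single libraries: its value was 0.21 without TOP2B knockdown replicate 1, 0.88 without TOP2B knockdown replicate 2 (adjusted p = 0.0144) and 0.78 without control replicate 1 (adjusted p = 0.0358), and DESeq2 called it (adjusted p = 0.0409). With each library left out in turn, 11 to 13 of the G1/S genes and 1 to 2 of those of G2 and mitosis were called higher, the count of 1 being that without control replicate 2 or without TOP2B knockdown replicate 1. CDK1, the mitotic kinase and one of the 2 called, had an adjusted p of 0.0497 and was not called in any of these 4 fits (0.143 to 0.256). The summed level of the 30 genes was 4223 and 3947 CPM in the control libraries and 5855 and 5421 CPM in the knockdown libraries. Both knockdown libraries lay above both controls. The study found cell cycle progression unchanged by TOP2B depletion, as measured by PI staining. Several of the regulators that rose, among them DNMT1, UHRF1, HELLS and EZH2, are known to be made mostly in dividing cells, and the part of the proliferation genes in their rise was not tested. Calls that leave out a library, given for each gene below, come from fits in which the lone library of a group is assumed to vary like the others.

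**Figure D2:**
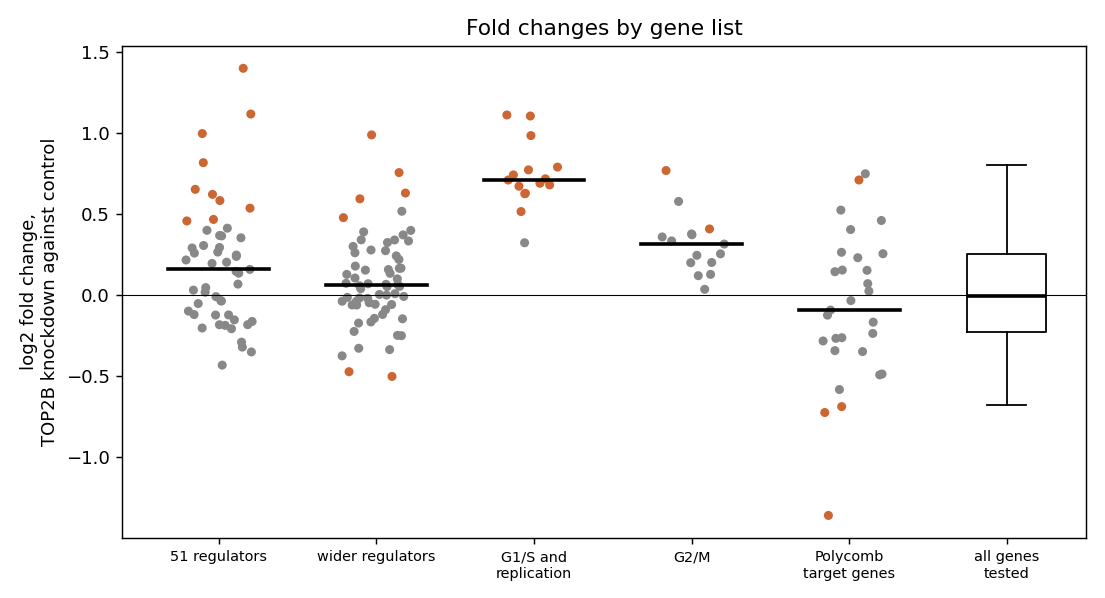
Each point is a gene of the list named on the horizontal axis, at its log2 fold change of knockdown over control cells, orange where the adjusted p is below 0.05. Black lines are medians (0.16 for the 51 regulators, 0.06 for the wider list, 0.71 and 0.32 for the proliferation lists, -0.09 for Polycomb target genes), and the box gives the quartiles of all genes tested with whiskers from the 5th to the 95th percentile.

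Of the 5 genes of DNA methylation 3 rose, DNMT1, UHRF1 and HELLS, and the de novo enzymes DNMT3A and DNMT3B did not pass the test. DNMT1 (ENSG00000130816, chromosome 19 of GRCh38 from 10133342 to 10231286, minus strand), the maintenance methyltransferase, was at 145 and 153 CPM in the control libraries and at 329 and 319 CPM in the knockdown libraries. The pairs lay far apart and agreed closely within a group. Its log2 fold change was 1.12 ± 0.13 (SE, adjusted p = 0.00117), a rise of 2.17-fold from 149 ± 5.66 to 324 ± 7.62 CPM (SD, n = 2).

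UHRF1 (ENSG00000276043, chromosome 19 from 4903080 to 4962154, plus strand), which reads hemimethylated DNA and recruits DNMT1, was at 60.9 and 58.7 CPM in control and at 109 and 101 CPM in knockdown cells. Its log2 fold change was 0.82 ± 0.12 (SE, adjusted p = 0.00286). HELLS (ENSG00000119969, chromosome 10 from 94545329 to 94613905, plus strand), a chromatin remodeller needed for DNA methylation of repeats, was at 39.2 and 37.9 CPM in control and at 65.8 and 55.3 CPM in knockdown cells. The groups did not overlap for either gene, and the knockdown libraries of HELLS differed more from each other than the controls did. The log2 fold change of HELLS was 0.65 ± 0.13 (SE, adjusted p = 0.012), and without TOP2B knockdown replicate 1 it was 0.53 with an adjusted p of 0.0582. The calls of DNMT1 and UHRF1 held with each library left out in turn.

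The de novo enzyme DNMT3A was at 22.4 and 21.7 CPM in control and 20.1 and 19.5 CPM in knockdown cells, a log2 fold change of -0.15 (adjusted p = 0.506). DNMT3B was at 10.0 and 7.90 CPM in control and 14.3 and 8.78 CPM in knockdown cells, so that the groups overlapped. Its log2 fold change of 0.37 (adjusted p = 0.362) rested on 1 library: it was -0.03 without TOP2B knockdown replicate 1, and 0.68 with an adjusted p of 0.0456 without TOP2B knockdown replicate 2. Genes of different length can be compared per kilobase, though the size of a ratio between genes depends on the length used. DNMT1 was at 27.6 and 29.1 CPM per kb of canonical transcript in control and 62.5 and 60.4 CPM per kb in knockdown cells. It was above both de novo enzymes in every library. The ratio of DNMT1 to DNMT3A per kilobase was 11.6 and 12.6 in control and 29.2 and 29.1 in knockdown libraries. That of DNMT1 to DNMT3B was 11.9 and 15.97 against 18.9 and 29.8. With all annotated exons as the length, the ratio to DNMT3A was 5.81 and 6.34 in control and 14.65 and 14.61 in knockdown libraries. A ratio within a library does not depend on how libraries are scaled, and the ratio to DNMT3A was 2.41-fold higher between the group means.

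**Figure D3:**
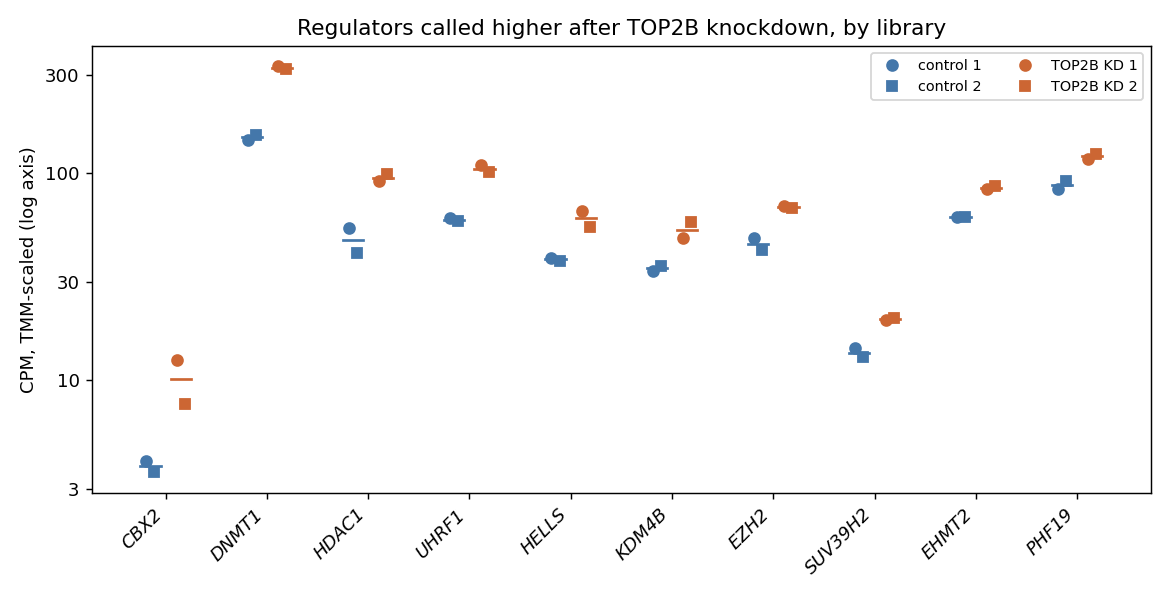
The level of the 10 regulators called higher is shown in each library as TMM-scaled CPM on a log axis, with control in blue, TOP2B knockdown in orange, replicate 1 as circles, replicate 2 as squares and group means as lines. In each of the 10 both knockdown libraries lie above both control libraries, from CBX2 (3.60 and 4.09 against 7.69 and 12.6 CPM) to DNMT1 (145 and 153 against 319 and 329 CPM). The 10 were chosen by the test on these same libraries, so this separation is not separate evidence. Of all genes, 27.7% are separated in this direction.

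Of the 6 H3K9 methyltransferases, 2 rose and 4 did not pass the test. SUV39H2 (ENSG00000152455, chromosome 10 from 14878820 to 14904315, plus strand), one of the pair of enzymes that trimethylate H3K9 in constitutive heterochromatin, was at 14.3 and 12.9 CPM in control and at 19.5 and 20.1 CPM in knockdown cells. Its log2 fold change was 0.54 ± 0.14 (SE, adjusted p = 0.0383). EHMT2 (ENSG00000204371, chromosome 6 from 31879759 to 31897698, minus strand), also called G9a, which places H3K9me2 together with EHMT1, was at 61.8 and 61.7 CPM in control and at 83.7 and 87.2 CPM in knockdown cells. Its controls were nearly equal, and its log2 fold change was 0.47 ± 0.11 (SE, adjusted p = 0.0288). Both calls are near the limit of these data. With each library left out in turn the adjusted p of SUV39H2 ranged from 0.0544 to 0.194 and that of EHMT2 from 0.0742 to 0.136, and DESeq2 gave SUV39H2 an adjusted p of 0.0665.

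SUV39H1, the partner of SUV39H2, was at 24.7 and 26.8 CPM in control and at 30.9 and 35.6 CPM in knockdown cells, which did not overlap, with a log2 fold change of 0.37 (adjusted p = 0.106). Overlapping genes share 21.2% of its exon bases. SETDB1, the methyltransferase that TRIM28 and HUSH employ, had a log2 fold change of -0.12, its relative SETDB2 one of 0.16 and EHMT1 one of 0.05, all with overlapping groups and adjusted p between 0.631 and 0.841. Per kilobase, SUV39H2 stayed below SUV39H1 in every library, with a ratio of 0.43 to 0.56 and overlapping groups. The ratio of EHMT2 to EHMT1, examined after the values were seen, was 1.40 and 1.30 in control and 1.79 and 1.82 in knockdown libraries.

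Of the 3 H3K9 demethylases 1 rose and 2 did not pass the test. KDM4B (ENSG00000127663, chromosome 19 from 4969113 to 5153598, plus strand) was at 33.6 and 35.9 CPM in control and at 48.6 and 58.4 CPM in knockdown cells, a log2 fold change of 0.62 ± 0.13 (SE, adjusted p = 0.0167). Without TOP2B knockdown replicate 2 its value was 0.49 with an adjusted p of 0.0863. KDM4A was at 59.2 and 55.4 CPM in control and at 45.1 and 48.7 CPM in knockdown cells, and KDM4C at 9.98 and 8.55 against 7.79 and 5.95 CPM. Both lay lower in knockdown cells without overlap, but neither passed the test (log2 fold changes of -0.29 and -0.43, adjusted p of 0.152 and 0.187), and 48.8% of the exon bases of KDM4A are shared with overlapping genes. The ratio of KDM4B to KDM4A per kilobase, also examined after the values were seen, was 0.45 and 0.52 in control and 0.86 and 0.96 in knockdown libraries.

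The 3 HP1 genes, whose proteins bind methylated H3K9, were not called. CBX5 (HP1 alpha) was at 529 and 543 CPM in control and at 528 and 517 CPM in knockdown cells, with a log2 fold change of -0.04 ± 0.14 (SE, adjusted p = 0.901). CBX3 (HP1 gamma) was at 219 and 237 CPM against 258 and 284 CPM, and CBX1 (HP1 beta) at 128 and 154 CPM against 154 and 174 CPM. The last pair of log2 fold changes was 0.25 and 0.22 with standard errors of 0.13 and 0.14 (adjusted p of 0.268 and 0.359). Per kilobase of the canonical transcript CBX5 was below CBX3 in every library, with a ratio of 0.43 and 0.41 in control and 0.37 and 0.32 in knockdown cells, whereas the order of CBX3 and CBX1 depended on which exons were counted as the gene's length. The 10 annotated CBX3 pseudogenes held at most 19 counts in a library, against at least 5250 for CBX3.

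TRIM28 (KAP1), the corepressor of zinc finger proteins, was at 374 and 391 CPM in control and at 491 and 520 CPM in knockdown cells. The groups did not overlap, and the log2 fold change of 0.40 ± 0.14 (SE) missed the threshold in edgeR (adjusted p = 0.0933) and passed it in DESeq2 (adjusted p = 0.0374). ATRX and DAXX, which together place histone H3.3 in heterochromatin, had log2 fold changes of 0.14 and 0.02 with overlapping groups. Of the 4 HUSH genes 0 were called. MPHOSPH8, which binds H3K9me3, TASOR, the scaffold, PPHLN1 (periphilin) and MORC2, the ATPase that acts with the complex, had log2 fold changes of -0.12, 0.03, 0.20 and -0.05, all with adjusted p between 0.364 and 0.901. Overlap of the groups was seen in each except PPHLN1, which was at 63.5 and 53.8 CPM in control and at 66.1 and 68.3 CPM in knockdown cells.

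Among the deacetylases HDAC1 (ENSG00000116478, chromosome 1 from 32292083 to 32333635, plus strand), a catalytic subunit of several corepressor complexes, rose. It was at 54.3 and 41.1 CPM in control and at 91.5 and 98.9 CPM in knockdown cells, from 47.7 ± 9.32 to 95.2 ± 5.19 CPM (mean ± SD, n = 2). The controls differed from each other but stayed well below both knockdown libraries. Its fitted log2 fold change was 1.00 ± 0.15 (SE, adjusted p = 0.00325), between 0.82 and 1.21 with each library left out in turn, and called in each of these fits. The 2 annotated HDAC1 pseudogenes held at most 1 count in a library. HDAC2, its close relative, was at 155 and 158 CPM in control and at 167 and 179 CPM in knockdown cells (log2 fold change 0.15, adjusted p = 0.49). The ratio of HDAC1 to HDAC2 per kilobase, examined after the values were seen, was 1.61 and 1.20 in control and 2.51 and 2.54 in knockdown libraries. HDAC3, SIRT1 and SIRT6 were not called, with log2 fold changes of 0.31, 0.27 and -0.16.

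**Figure D4:**
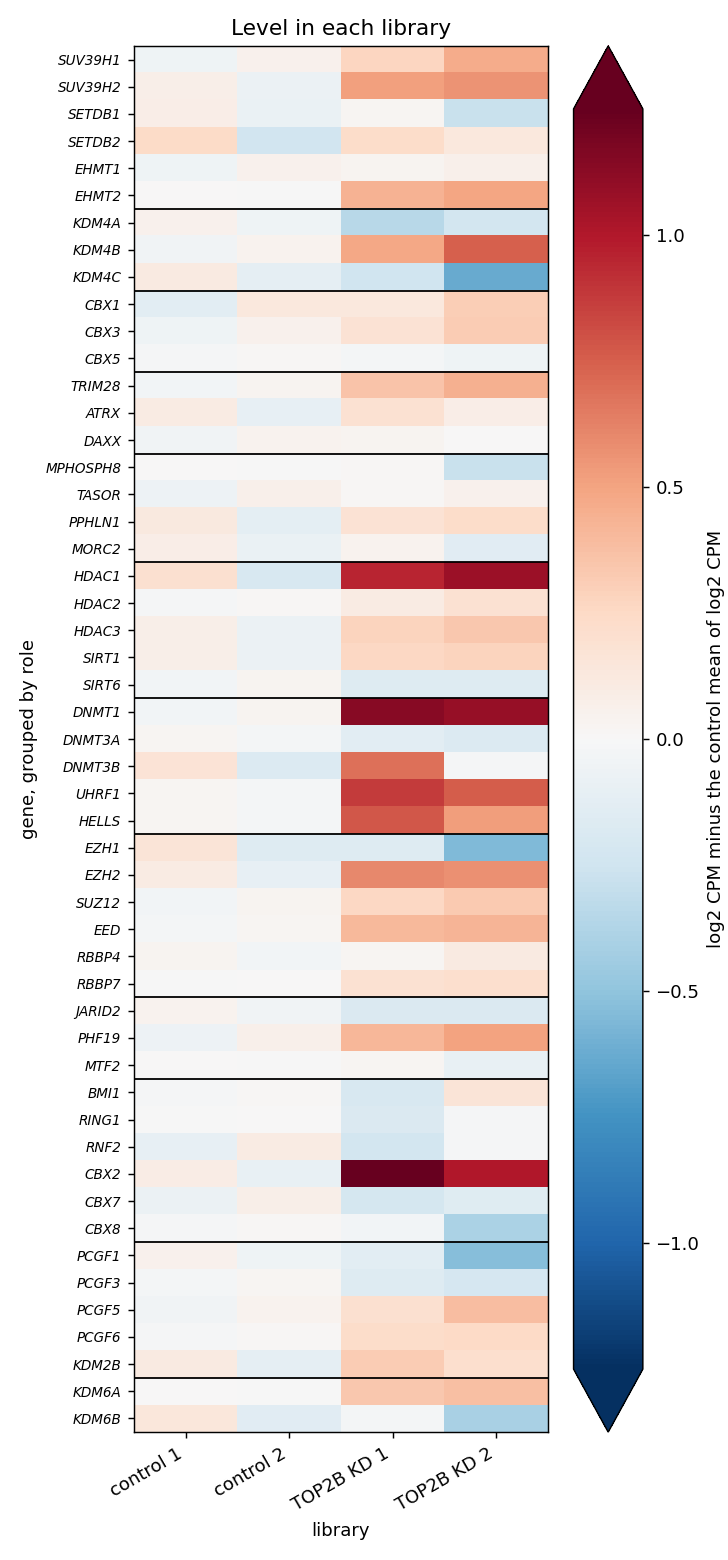
Each row is a regulator and each column a library, and the colour gives the log2 CPM minus the mean log2 CPM of the controls, with red for higher and blue for lower, and black lines between roles. DNMT1, UHRF1, HDAC1 and CBX2 are red in both knockdown libraries, while DNMT3B is red in replicate 1 and near 0 in replicate 2.

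In PRC2, the catalytic subunit EZH2 rose and its alternative EZH1 did not pass the test. EZH2 (ENSG00000106462, chromosome 7 from 148807257 to 148884321, minus strand) was at 49.0 and 42.7 CPM in control and at 69.3 and 68.1 CPM in knockdown cells. Its log2 fold change was 0.58 ± 0.12 (SE, adjusted p = 0.0156), and 0.49 with an adjusted p of 0.106 without control replicate 2. EZH1, which is found also in cells that do not divide, was at 63.8 and 50.8 CPM in control and at 51.01 and 38.9 CPM in knockdown cells. Its groups overlapped, with a log2 fold change of -0.35 ± 0.16 (SE, adjusted p = 0.204). The ratio of EZH2 to EZH1 per kilobase was 1.34 and 1.47 in control and 2.37 and 3.06 in knockdown libraries, 1.93-fold higher between the group means. Which of the pair was the more abundant depended on the exons counted as length (0.50 and 0.54 in control with all annotated exons), while the change of the ratio does not depend on it.

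The other core subunits of PRC2 had positive values that did not pass the test. EED, which binds the H3K27me3 mark, was at 24.3 and 25.0 CPM in control and at 32.6 and 33.1 CPM in knockdown cells, with a log2 fold change of 0.41 ± 0.12 (SE, adjusted p = 0.0578). SUZ12, the scaffold, had a log2 fold change of 0.29 (adjusted p = 0.139), and the histone chaperones RBBP7 and RBBP4 had values of 0.20 and 0.07. A SUZ12 pseudogene held 170 to 248 counts against 1818 to 1974 for SUZ12, and reads may be hard to assign between them. PHF19 (ENSG00000119403, chromosome 9 from 120855651 to 120894896, minus strand), a Polycomb-like subunit that brings PRC2 to chromatin, rose. It was at 84.3 and 91.7 CPM in control and at 117 and 124 CPM in knockdown cells, with a log2 fold change of 0.46 ± 0.12 (SE, adjusted p = 0.0367), and its adjusted p was 0.0836 to 0.215 with each library left out in turn. Its relative MTF2 was at 23.4 and 23.1 CPM against 23.6 and 21.8 CPM, and JARID2, another accessory subunit, at 56.2 and 53.2 CPM against 48.3 and 48.2 CPM, neither called (adjusted p of 0.905 and 0.359).

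In PRC1 the largest rise among the 51 was that of CBX2 (ENSG00000173894, chromosome 17 from 79778148 to 79787983, plus strand), a chromodomain subunit that reads H3K27me3 and compacts nucleosomes. It had 98 and 82 counts in the control libraries and 267 and 155 counts in the knockdown libraries, which is 4.09 and 3.60 CPM against 12.6 and 7.69 CPM. Both knockdown libraries were above the controls but differed widely from each other (10.1 ± 3.47 against 3.84 ± 0.35 CPM, SD, n = 2). Its fitted log2 fold change was 1.40 ± 0.25 (SE, adjusted p = 0.00753), between 1.00 and 1.72 with each library left out in turn, and called in each of these fits. CBX7 and CBX8, which take the same place in the complex, were not called. CBX7 was at 6.89 and 7.59 CPM in control and at 6.23 and 6.50 CPM in knockdown cells, and CBX8 at 11.7 and 11.9 CPM against 11.5 and 8.98 CPM. Per kilobase CBX2 was below CBX7 in control (ratio 0.53 and 0.42) and above it in knockdown libraries (1.80 and 1.05), and it stayed below CBX8 in each library (0.28 and 0.25 against 0.89 and 0.69). These orders held also with all annotated exons as the length.

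**Figure D5:**
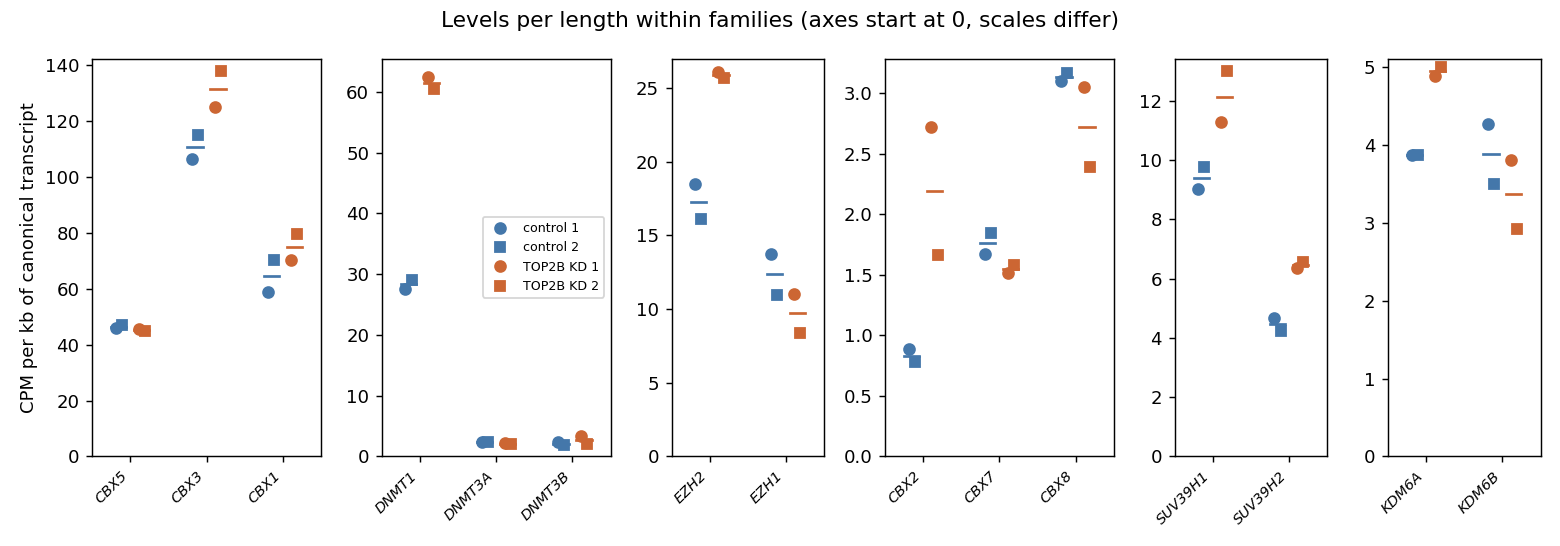
Levels within 6 families are given as TMM-scaled CPM per kilobase of the canonical transcript in each library, with axes that start at 0 and differ in scale, control in blue, knockdown in orange, and group means as lines. DNMT1 goes from 27.6 and 29.1 to 62.5 and 60.4 CPM per kb beside nearly level DNMT3A, and CBX2 goes from below to above CBX7.

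The catalytic core of PRC1 did not pass the test. RNF2 and RING1, the ubiquitin ligases, and BMI1, their partner in canonical PRC1, had log2 fold changes of -0.12, -0.10 and -0.01 (adjusted p between 0.633 and 0.979), and other genes share 22.8% of the exon bases of BMI1. In the variant complexes PCGF5, PCGF6 and KDM2B lay higher in knockdown cells and PCGF1 and PCGF3 lower, in all 5 without overlap and in 0 of 5 past the threshold, where 54.3% of all genes were without overlap. Their log2 fold changes were 0.29, 0.24, 0.26, -0.32 and -0.18 in that order. Of the enzymes that remove H3K27 methylation, KDM6A (UTX) was at 23.6 CPM in both control libraries and at 29.8 and 30.5 CPM in knockdown cells, with a log2 fold change of 0.35 (adjusted p = 0.0976). KDM6B (JMJD3) had a value of -0.21 with overlapping groups (adjusted p = 0.471).

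Several of the regulators that rose are known to be made mostly in dividing cells. The promoters of the regulators were searched for E2F words, short sequences bound by the E2F factors of the G1/S transition. The part of these factors in the rises was not tested. The words were TTCCCGC and TTGGCGC on either strand, in RefSeq windows of GRCh38.p14 from 250 bases before to 50 bases after a start site, which were given for 46 of the 51 genes (not for ATRX, CBX2, CBX8, DAXX and TRIM28). A word was found in 12 of the 74 windows of these genes (16.2%), against 9.23% of all 35116 windows and 13.2% of the 16085 windows of genes tested. Among the regulators that rose it was found in 4 of 13 windows, and among the others in 8 of 61. Counted by gene, these were 4 of 9 and 6 of 37, against 17.5% of genes tested. Windows of a gene can overlap, as at the RBBP4 site, which was counted more than once. The proliferation genes had a word in 12 of 33 windows (36.4%). The windows with a word in UHRF1, HELLS, EZH2 and PHF19 are shown with 10 bases on each side, on the strand of the gene, with the word in capitals. In the capitals GCGGGAA and GCGCCAA are the words read on the opposite strand, and a match is only a run of letters and not a bound site.
UHRF1 (chr19:4909387-4909413, plus strand): tctttctcgcTTCCCGCcactgcgtcg
UHRF1 (chr19:4909477-4909503, plus strand): ccgagttttcGCGGGAAaaaaatcaga
HELLS (chr10:94545702-94545728, plus strand): accgcaagctGCGCCAAatctcgcgca
HELLS (chr10:94545771-94545797, plus strand): tgacaggattTTCCCGCgaaggagaag
EZH2 (chr7:148884273-148884299, minus strand): gctgccgcgtTTGGCGCtcggtccggt
PHF19 (chr9:120877324-120877350, minus strand): tcaataattcGCGGGAAaacgcgaaaa
The second HELLS word begins 7 bases before the start site of its window, and the EZH2 word 2 bases after it. The first HELLS word begins 76 bases before the start site, the UHRF1 words 104 and 14 bases before and the PHF19 word 152 bases before. The UHRF1 and PHF19 windows belong to start sites inside the annotated gene, not at its outer end. Words were also present in promoters of genes that were not called, among them CBX3, SUZ12, RBBP4, RNF2, MTF2 and SIRT6, and in no window of DNMT1, HDAC1, KDM4B, SUV39H2 or EHMT2.

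Tested genes with the word GCAACC in the 3′ UTR had a higher median fold change in these same libraries than genes without it. This difference comes from the same fit as the fold changes below, so it is not separate evidence for the word. It was not tested, and 3′ UTR length was not taken into account. The place of the word among the regulators was recorded. The canonical transcripts of 14 of the 51 hold it (27.5%), as do 23.6% of 12385 tested genes whose 3′ UTR spans 50 bases or more. Of the 10 regulators that rose, 3 hold it, and 7, DNMT1, UHRF1, HELLS, EZH2, CBX2, SUV39H2 and EHMT2, do not. The sites of the 3 are shown with 10 bases on each side and the word in capitals.
HDAC1 (chromosome 1): atacttttatGCAACCataagacaaa
KDM4B (chromosome 19): gccctactgaGCAACCtttgagattg
PHF19 (chromosome 9): agagagcccaGCAACCttctaggcct
The median log2 fold change of the 14 regulators with the word was 0.15 and that of the 37 without it 0.20, whereas over all genes the medians were 0.06 and -0.04. Among the 41 regulators not called, the medians were 0.14 with the word and -0.02 without it. These 41 were set apart by the call on the same fold changes. That call took out 3 higher genes with the word and 7 without it. These medians were not tested. The part of the word in the rise of HDAC1, KDM4B and PHF19 was not tested.

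A wider list of 66 genes of the same processes, written from general knowledge, was read from the same fit. Of 64 tested, 5 rose and 2 fell, 10.9% in all, which is near the 10.8% of all genes. The largest rise was that of SCMH1, a Polycomb protein, from 24.8 ± 2.56 to 49.2 ± 3.65 CPM (SD, n = 2), a log2 fold change of 0.99 (adjusted p = 0.00216). CHAF1B and CHAF1A, subunits of the chaperone CAF-1 that places histones behind the replication fork, rose by log2 values of 0.76 and 0.63 (adjusted p of 0.00593 and 0.0135). EPOP, a PRC2 accessory protein, rose by 0.59 and TRIM24, a relative of TRIM28, by 0.48. The falls were those of CBX6, a chromodomain protein of PRC1, from 162 ± 13.2 to 117 ± 0.70 CPM (SD, n = 2), and of PHC3, a Polyhomeotic subunit, with log2 fold changes of -0.47 and -0.50 (adjusted p of 0.0377 and 0.0477). The call of CBX6 held only without control replicate 1 and that of PHC3 only without control replicate 2 or TOP2B knockdown replicate 1 among the fits that leave out a library. The calls of SCMH1 and CHAF1B held in all 4 such fits, that of CHAF1A was lost without control replicate 1 (adjusted p = 0.0728), that of EPOP in 3 fits and that of TRIM24 in all 4.

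Many genes on which these regulators are known to act had too few counts to be tested. Of 39 HOX genes, classical targets of Polycomb, 15 had enough counts to be tested, and 2 fell and 0 rose. This is 13.3% of the 15, near the 10.8% called over all genes, as were the 13.8% of the 29 tested genes of the whole target list. HOXC8 was at 38.9 and 43.4 CPM in control and at 25.3 and 25.8 CPM in knockdown cells, a log2 fold change of -0.69 ± 0.12 (SE, adjusted p = 0.00822), called in all 4 fits without a library. HOXB4 was at 8.27 and 7.68 CPM against 5.33 and 4.31 CPM, a log2 fold change of -0.72 (adjusted p = 0.0391), and was not called without control replicate 1 (adjusted p = 0.0887) or without TOP2B knockdown replicate 2 (adjusted p = 0.209). Among 21 other targets, 14 were tested. WT1, a kidney and gonad factor, fell from 45 and 48 counts to 17 and 15 counts (log2 fold change -1.36, adjusted p = 0.0254). The call of WT1 was lost without control replicate 2 (adjusted p = 0.0783) or TOP2B knockdown replicate 2 (adjusted p = 0.0686). DESeq2 called neither HOXB4 (adjusted p = 0.0661) nor WT1 (adjusted p = 0.0887). CDKN2A, which encodes p16 and ARF and is a target of BMI1, was expressed in either group, with 1863 to 2063 counts a library and a log2 fold change of 0.26 (adjusted p = 0.197). Of 24 germline genes that DNA methylation keeps off in body tissues, 14 had 0 counts in every library, 8 had at most 9 counts, and the 2 that were tested, SSX1 and SYCP3, were not called. SSX1 had 21 and 31 counts in control and 35 and 51 counts in knockdown cells (adjusted p = 0.135).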

How the data were processed

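RNA was measured in 2 control and 2 TOP2B knockdown libraries (TruSeq kit, single-end reads). The authors checked reads with FastQC 0.11.6, aligned them to GRCh38 with STAR 2.5.4a and counted genes of Gencode v24 while mapping. The deposited values are these raw counts, without normalization. The column names carry tags for stranded, paired-end data, whereas single-end sequencing is stated in the study's methods. The study names an unstranded setting for the signal output of STAR, but none for the gene counts in the sources used here, so the share of exon bases that overlap other genes was computed (at most 8.11% for the called regulators, EHMT2). The table repeats each column once under the same name, and these 4 copies were not used.

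A gene was tested if 2 or more libraries had 10 or more counts for it, with edgeR 4.0.16 (glmQLFit and glmQLFTest, TMM, a design of the condition alone, Benjamini-Hochberg over all 15356 genes) in R 4.3.3. DESeq2 1.42.0 served as an alternative. Standard errors were derived from the quasi-likelihood F statistic. Gene positions, lengths and 3′ UTRs came from GENCODE v44 (GRCh38), which held 98.9% of the genes tested, and promoters from RefSeq. Lengths were those of the canonical transcript unless all annotated exons are named, and the size of each ratio between genes depends on this choice. The script was tested on simulated data. Replicates are called independent in the study's methods, and 2 per group limit the precision.

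The regulators and the other gene lists, written from general knowledge, were chosen with earlier results of these data known. Named were TOP2B, the 51 regulators, up to 6 called genes of each other list by size of change, and PCNA, MCM2, MKI67 and TOP2A. KRT8, MITF, OTX2, CBX6, CDKN2A, SSX1, CDK1, other markers and ratios marked so were added after their values were seen. Of the Polycomb target list, 1 called gene is not reported here.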

Additional observations from a re-analysis of the deposited data

How the results depend on the processing

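With 2 libraries per group and a depth of 20.3 to 23.9 reads per CPM, changes of the size seen for EED or TRIM28 lie at the edge of what is called. With the size factors of DESeq2, library size alone, no filter on counts or a mean of at least 100 counts, the same 10 regulators were called. DESeq2 called 10, of which 9 were shared, with TRIM28 in place of SUV39H2. With each library left out in turn 6 to 7 regulators were called higher and 0 lower, and CBX2, DNMT1, HDAC1 and UHRF1 in all 4 such fits. The median log2 fold change of the 51 was 0.10 to 0.19. Over all genes such fits called 708 to 1003 higher and 452 to 535 lower, on the wider list 2 to 4 higher and 0 to 1 lower, and among Polycomb targets 0 to 1 higher and 1 to 3 lower. The proliferation counts were added after seeing the data.

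The replicate block raised the number of regulators called to 27 higher and 6 lower, all genes to 3440 and 3346, the wider list to 23 and 9, the Polycomb targets to 3 and 9 and the higher genes of G2 and mitosis to 12. With the size factors of DESeq2 the last count was 1. The labels tie the numbers to nothing, deviations of same-numbered libraries correlated at 0.479, and with only 2 pairs this does not show that they are pairs. Without a filter on counts 985 genes were lower in all, and 5 Polycomb targets. Library size alone gave 1 lower gene on the wider list (CBX6, without PHC3), as did the mean of 100 counts, which also gave 1 lower Polycomb target, the number from DESeq2 too (HOXC8). The cause of these shifts was not tested.

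The sign of the log2 fold change of 10 regulators changed when a library was left out, and of 0 under another alternative: SETDB1 (-0.28 to 0.035), SETDB2 (-0.052 to 0.42), EHMT1 (-0.0033 to 0.10), DAXX (-0.025 to 0.069), MPHOSPH8 (-0.27 to 0.027), TASOR (-0.032 to 0.10), MORC2 (-0.14 to 0.046), DNMT3B (-0.026 to 0.68), MTF2 (-0.086 to 0.031) and BMI1 (-0.19 to 0.16).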
